A study of Mus musculus with 21 samples.

Results

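The genes described here are 36 lysosome and autophagy genes, found in a table of 34478 genes of cultured mouse pancreatic cancer cells. They were picked by symbol for their known roles, with earlier results of these data known. The other gene lists below were chosen likewise, so shares of members called beside those of all genes are descriptions. Of the 36 members, 35 passed the filter, a normalized count of 10 or more in 3 or more samples, and were tested. Ctss, a protease of antigen-presenting cells, did not, and is described by its values alone. The list holds 3 membrane proteins of the lysosome, 9 proteases, 6 glycosidases and 5 genes grouped under lipid handling, Grn for progranulin among them. It also holds a calcium channel with 3 proton pump subunits, 3 transcription factors and 6 autophagy genes.

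The cells were primary lines from pancreatic tumors of mice whose alleles included Ptf1awt/Cre and Trp53loxP/loxP, in which a Cre recombinase made in Ptf1a-expressing pancreatic cells deletes Trp53. Messenger RNA of 6 lines, numbered #3, #4, #6, #7, #9 and #10, was sequenced once per state, which gave 21 samples. Parental cells had never met the drug, and Resistant cells grew in trametinib, a MEK inhibitor, at 100 times the IC50 of their line. In Resistant samples the drug and resistance come together, so their parts cannot be told apart. P12 cells had been kept without the drug for 12 passages, and P5 cells, sequenced for lines #3, #7 and #9 alone, for 5 passages. The 4 groups thus held 6 Parental, 6 Resistant, 3 P5 and 6 P12 samples, and all of them carried the same alleles. The lines are the replicates, each a population of its own, and the state groups hold the same lines. For the P5 samples of lines #7 and #9 the sample descriptions give 12 passages, whereas titles and group labels give P5. The sources name more than 1 sequencer without assigning samples to them, so no values within a sequencing batch could be given.

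Normalized counts summed to between 28576703 and 37119662 per sample. The spacing of the lowest values put the reads behind them at about 24000000 to 42500000 per sample, and on that scale 3 reads corresponded to a value of 2.31 to 4.06. This limit covers counting error only.

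The drug labels were checked against 6 genes that the MAPK pathway switches on. All 6 fell in Resistant cells and all 6 rose again at P12. Dusp6, a phosphatase that restrains ERK, lay between 5249 and 9449 normalized counts in Parental, between 4.49 and 681 in Resistant and between 5098 and 16848 in P12 samples. Ccnd1, the most abundant of the 6, had a median of 25316 in Parental and 4852 in Resistant samples.

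Markers of duct and epithelium were checked as well. Krt19, a duct keratin and by its median over all 21 samples the most abundant of the 7 markers, ran from 3074 through a median of 35795 to 55658 in Parental samples. In that state Krt8 stood higher, with a median of 79653, and Krt18 with 56911. The Parental sample of line #9 was low in keratins, with Krt8 at 546 against 73967 to 92917 in the other 5 lines. Epcam, otherwise a common marker of epithelium, was listed at 0 in 20 of the 21 samples.

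As background, the lysosome is the acidic compartment in which cells break down proteins, sugars and lipids, and autophagy delivers the cell's own material to it in membrane vesicles. The transcription factors TFEB, TFE3 and MITF switch on many of these genes by binding a short element, called CLEAR, whose core reads CACGTG. Pancreatic cancer cells are known for high autophagy and for lysosomes that supply them with nutrients.

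Measured against cells that had never met the drug, some of the lysosomal genes rose in cells growing in trametinib. Fewer were called as falling between these cells and the drug-free P12 cells, where fewer of all genes were called too. Of 35 members tested, 11 rose and 0 fell between Parental and Resistant cells at an adjusted p below 0.05 in limma, while 7.73% of all 19300 tested genes rose and 7.9% fell. At an unadjusted p below 0.05 the count was 17 higher and 1 lower, beside 2815 and 2827 of all 19300 genes. With the cell line as a block, 18 rose and 1 fell, against 12.8% and 13.2% of all genes. The added calls were Ctsz, Npc1, Mcoln1, Atp6v1a, Atp6v1h, Sqstm1 and Gabarapl1 upward and Ctsh downward. In a fit of these 2 states alone the block gave 10 higher, without Ulk1 and without these added rises, and 1 lower, Ctsh, beside 1326 higher and 1408 lower of 17720 genes. Differences were above 0 for 32 members and below 0 for 3, with a median of 0.56 on the log2 scale. Over all genes tested the median was 0.00, and 49.6% were above 0. Without line #4 the count of 11 became 6, and without line #10 it became 7. The rises among all genes went from 1492 of 19300 to 844 of 18985 and 886 of 18962.

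From Resistant to P12 cells, 6 members fell and 0 rose, against 3.03% and 3.2% of all genes tested. At an unadjusted p below 0.05, limma gave 14 lower and 1 higher, beside 1899 and 1922 of all 19300 genes. The block raised the count to 10 lower and 1 higher, with 6.6% and 6.11% of all genes. It added Ctsa, Ctsd, Grn and Neu1 downward and Ctsh upward. In a fit of these 2 states alone, the block gave 11 lower, with Hexa added, beside 906 of 18008 genes, and Ctsh was not called. The median member difference was -0.45 on the log2 scale, with 28 members below 0, beside a median of 0.02 over all genes. Leaving out line #4 or line #10 reduced the count of 6 to 3, while the falls among all genes went from 584 to 269 and 279.

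P12 against Parental cells asks whether the genes were back at the level of never-treated cells. In limma, 0 members rose and 0 fell, against 0.301% and 0.358% of all genes tested. At an unadjusted p below 0.05 the counts were 5 higher and 1 lower, beside 1442 and 1511 of all 19300 genes. Under the block Wipi1 was called higher and Neu1 lower, with 2.34% and 2.98% of all genes called in these directions, and neither was called with the block in a fit of these 2 states alone. Members had a median difference of 0.21 on the log2 scale, with 26 above 0 and 9 below, beside 0.03 over all genes. Few genes of any kind were called between these 2 states, and a count of 0 does not show that the levels were equal. Without line #9, Hexa was called higher (adjusted p = 0.0246). In that fit 232 of 18807 genes were called higher, beside 58 of 19300 with all lines, and more genes were called lower as well.

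P5 against Resistant cells rests on 3 lines and covers the first passages without the drug. The fit sets 3 P5 against 6 Resistant samples. There, 0 members rose and 1 fell, Atp6v0d1, against 1.18% and 0.891% of all genes. At an unadjusted p below 0.05, limma gave 1 higher and 10 lower, beside 1456 and 1520 of all 19300 genes. The block gave 1 higher, Ctsh, and 2 lower, Atp6v0d1 and Tpp1, with 1.6% and 1.18% of all genes. The median member difference was -0.47 on the log2 scale beside 0.03 over all genes. A fit of these 2 states alone did not call Atp6v0d1, with or without the block, nor did the block then call Ctsh or Tpp1. With that block limma called 0 of 17228 genes higher and 0 lower (849 and 855 at an unadjusted p below 0.05), and without it 34 and 8, so this fit says little about single members. Without the P5 samples of lines #7 and #9, P5 is 1 sample that is assumed to vary like the other groups. That fit called 11 genes higher and 4 lower of 19062, without Atp6v0d1, and says as little. Leaving out line #3 or line #7 took the call of Atp6v0d1 away, with adjusted p up to 0.198, and without line #7 Ulk1 was called lower (adjusted p = 0.027). Without line #9, Lamp1 joined Atp6v0d1 (adjusted p = 0.0374). The 4 comparisons share samples, since the Resistant group enters 3 of them and the Parental and P12 groups 2 each.

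**Figure D1:**
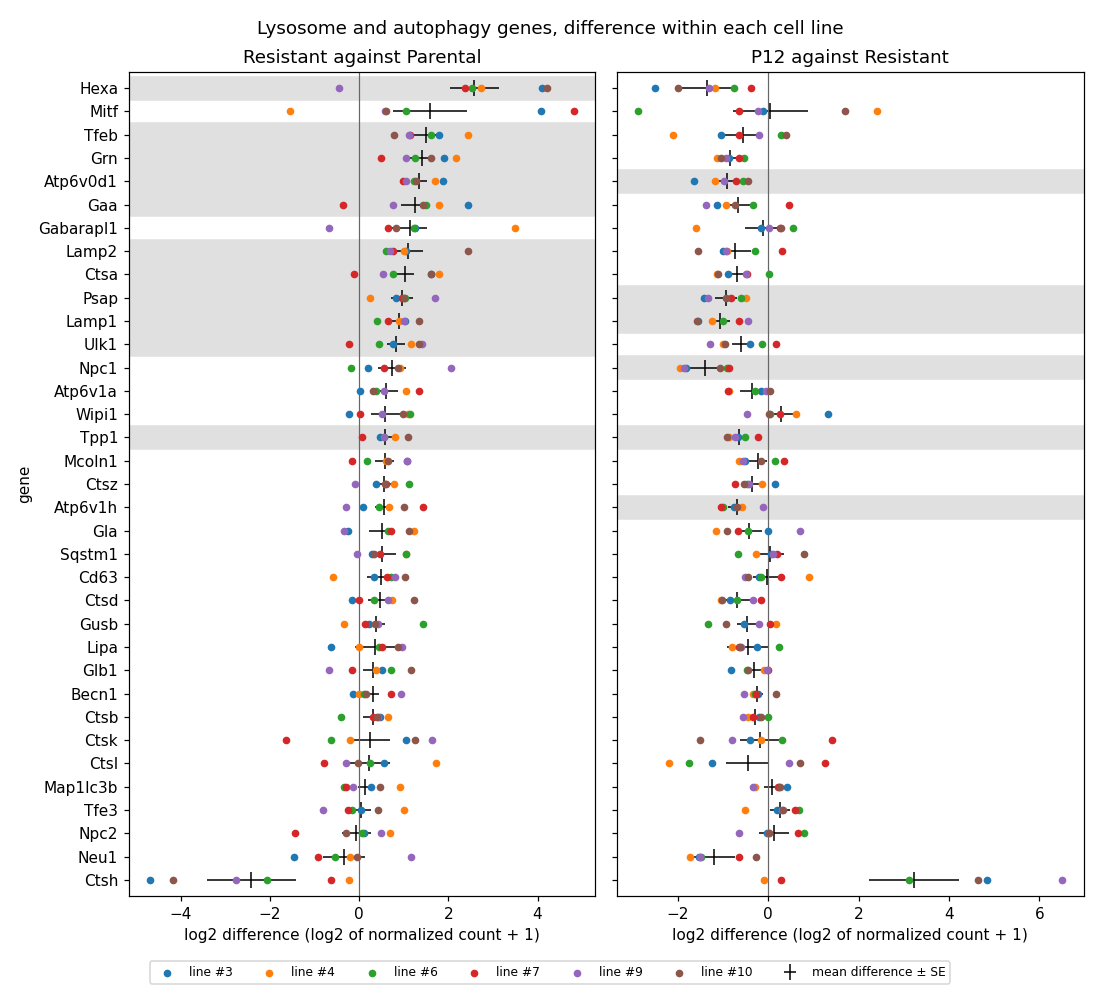
Log2 difference of each of the 35 tested members within each of the 6 cell lines (points) and the mean difference ± SE of the fit (black), for Resistant against Parental and P12 against Resistant; grey bands mark members with an adjusted p below 0.05. Of the members, 32 have a mean above 0 on the left and 28 a mean below 0 on the right.

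Among the membrane proteins, the major glycoproteins of the lysosomal limiting membrane rose from Parental to Resistant cells. Lamp1 (chr8:13159161-13175338) ran from 18223 through a median of 23592 to 28479 normalized counts in Parental samples and from 28465 through 41401 to 64207 in Resistant samples. The ranges met at a single pair, since the Resistant sample of line #7 lay just under the Parental sample of line #6. Lamp1 rose by 0.89 ± 0.22 (log2, SE; adjusted p = 0.0119) and was higher in 6 of 6 lines. In P12 samples it ran from 13052 through 19226 to 32416, below the matching Resistant sample in 6 of 6 lines (-1.08 ± 0.22, adjusted p = 0.00649). Leaving out any line kept both calls of Lamp1. Lamp2, which also serves chaperone-mediated autophagy, had medians of 5101 in Parental, 9531 in Resistant and 6150 in P12 samples and rose by 1.09 ± 0.34 (adjusted p = 0.0352) in 6 of 6 lines. Its largest within-line difference was 2.43 in line #10, and its call was lost without line #3, #4, #6 or #10, with adjusted p up to 0.162. Cd63, a tetraspanin of late endosomes and secreted vesicles, did not pass the test. Its medians were 7971, 10118 and 12010 in the same order of states, and line #4 alone had a lower value in Resistant than in Parental cells.

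The proteases did not move as one. Ctsa (chr2:164832873-164841032), a serine carboxypeptidase that also shields galactosidase and neuraminidase in a complex, ran from 5098 through 7422 to 12596 in Parental samples and from 11575 through 14862 to 23809 in Resistant samples. It rose by 1.03 ± 0.21 (adjusted p = 0.0027) in 5 of 6 lines, while line #7 went from 12596 to 11575. At P12 it ran from 8292 through 10245 to 12089, a difference of -0.69 ± 0.21 that was called with the block alone (adjusted p = 0.0568, with the block 0.0443). Tpp1, which trims tripeptides from the ends of proteins, had medians of 4860, 7711 and 4801 in Parental, Resistant and P12 samples. It rose by 0.59 ± 0.17 (adjusted p = 0.0214) in 6 of 6 lines and fell again by 0.66 ± 0.17 (adjusted p = 0.0213), with all P12 samples under all Resistant samples. Both calls of Tpp1 were lost without line #4, #6 or #10, with adjusted p up to 0.113 for the rise and 0.0947 for the fall.

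Ctsd, the main aspartic protease of the lysosome, had medians of 14238 in Parental, 20021 in Resistant and 13343 in P12 samples. Its Resistant value was above the Parental one in 4 of 6 lines, and its P12 value was below the Resistant one in 6 of 6 lines (-0.69 ± 0.28, adjusted p = 0.174, with the block 0.0192). Without line #3, Ctsd was called in both comparisons, with adjusted p of 0.0383 and 0.0414. Ctsz, a carboxypeptidase, was higher in 5 of 6 lines in Resistant than in Parental cells (0.56 ± 0.25, adjusted p = 0.131), and was called with the block (0.0199) or without line #9 (0.00886). Ctsb and Ctsl, which cut within proteins, did not pass the test in any of the 4 comparisons. Ctsl differed widely between lines, from 7456 to 60131 in Resistant samples, with 3 lines higher and 3 lower than their Parental sample. Ctsk, best known for collagen breakdown in bone, stayed between 7.45 and 44.1 normalized counts in all 21 samples. Ctss was listed at 0 in all Parental and all Resistant samples and reached at most 5.18, in a P5 sample.

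Ctsh (chr9:90054152-90076089), an aminopeptidase, went the other way. In Parental samples it ran from 341 through 2743 to 5685 and in Resistant samples from 39.9 through 374 to 3647, and it was lower in the Resistant sample of 6 of 6 lines. The difference of -2.42 ± 1.00 on the log2 scale did not pass without the block (adjusted p = 0.108) and passed with it (0.0203). Lines #3, #9 and #10 gave the largest differences, -4.69, -2.76 and -4.18. At P12 Ctsh ran from 1030 through 4416 to 5157, higher than in the Resistant sample in 5 of 6 lines (3.22 ± 1.00, adjusted p = 0.0619, with the block 0.00801, without line #7 0.0396). The P5 samples of lines #3, #7 and #9 held 4302, 15804 and 3322, each above its Resistant sample (4.13 ± 1.22, adjusted p = 0.0884, with the block 0.0307).

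Among the glycosidases, Hexa and Gaa rose. Hexa (chr9:59539540-59565109), the alpha chain of the hexosaminidase that degrades the ganglioside GM2, ran from 402 through 1170 to 3133 in Parental samples and from 2293 through 7978 to 12577 in Resistant samples. The rise of 2.58 ± 0.55 (adjusted p = 0.00402) was the largest log2 difference among the 11 members called upward. It appeared in 5 of 6 lines, and line #9, which had the highest Parental value, went from 3133 to 2293. P12 samples ran from 925 through 2968 to 5648, lower than the Resistant sample in 6 of 6 lines (-1.36 ± 0.55, adjusted p = 0.167, without line #9 0.0418). Gaa, which releases glucose from glycogen, had medians of 4994, 15142 and 8040 and rose by 1.26 ± 0.33 (adjusted p = 0.0139) in 5 of 6 lines, with line #7 going from 6097 to 4734. Its call was lost without line #3, #4, #6 or #10, with adjusted p up to 0.0943.

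Gla, Glb1 and Gusb, which remove galactose and glucuronic acid residues, did not pass the test in any comparison. Their differences between Resistant and Parental cells lay between 0.32 and 0.52. Neu1 is the sialidase held in the complex with Ctsa. Its Parental samples ran from 1318 through 5675 to 6270, Resistant samples from 2170 through 3434 to 5424 and P12 samples from 750 through 1378 to 4485. Neu1 was lower at P12 than in Resistant cells in 6 of 6 lines (-1.20 ± 0.46, adjusted p = 0.139, with the block 0.0317). It was also lower at P12 than in Parental cells in 6 of 6 lines (-1.54 ± 0.46, adjusted p = 0.121, with the block 0.0232).

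Among the genes grouped under lipid handling, Psap and Grn rose. Psap (chr10:60277627-60302597), the precursor of the saposins that present sphingolipids to their enzymes, ran from 17320 through 19420 to 27137 in Parental samples. All Resistant samples lay above all Parental samples, from 30618 through 34667 to 68941, and Psap rose by 0.96 ± 0.24 (adjusted p = 0.0109). Only 2 of the 35 members tested were separated in this way, Psap and Atp6v0d1, beside 2.83% of all genes. P12 samples ran from 11381 through 21058 to 29787, all below all Resistant samples (-0.94 ± 0.24, adjusted p = 0.0222). This fall was not called without line #7 or line #10, with adjusted p up to 0.0761. In this comparison 4 members were separated, Psap, Tpp1, Atp6v0d1 and Atp6v1h, beside 1.06% of all genes.

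Grn (chr11:102430315-102437048) encodes progranulin, which travels to the lysosome with prosaposin and is cut into granulins there. It ran from 4048 through 7446 to 13732 in Parental and from 13000 through 19456 to 31516 in Resistant samples. Grn rose by 1.41 ± 0.27 (adjusted p = 0.00195) in 6 of 6 lines and kept its call without any single line. At P12 the counts ran from 8244 through 11352 to 14652, below the Resistant sample in 6 of 6 lines (-0.86 ± 0.27, adjusted p = 0.0654, with the block 0.00459). Npc1, which exports cholesterol from the lysosome, had medians of 2447 in Parental and 3653 in Resistant samples (0.74 ± 0.32, adjusted p = 0.129, with the block 0.0487). Its median at P12 was 1464, a fall of 1.41 on the log2 scale from Resistant cells (SE 0.32, adjusted p = 0.0121) that all 6 lines showed and that was not called without line #4 (0.0702). Npc2, the partner that hands cholesterol to Npc1, and Lipa, the acid lipase, did not pass the test in any comparison.

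Of the channel and pump genes, Atp6v0d1 rose from Parental to Resistant cells, and the block called the other 3 as well. Atp6v0d1 (chr8:105524465-105566047), the d subunit in the membrane part of the proton pump that acidifies the lysosome, ran from 934 through 1127 to 1638 in Parental samples and from 2267 through 3099 to 4067 in Resistant samples. The groups did not overlap, and the gene rose by 1.35 ± 0.18 in 6 of 6 lines, with the smallest adjusted p of the members (9.37e-05). At P12 it ran from 1306 through 1542 to 2134, below all Resistant samples, and fell by 0.92 ± 0.18 (adjusted p = 0.00403). Every P12 sample was still at or above its Parental sample, with within-line differences from 0.05 to 0.81, although that difference was not called (0.42 ± 0.18, adjusted p = 0.262). The P5 samples of lines #3, #7 and #9 held 1211, 1443 and 1923, each below its Resistant sample (-1.02 ± 0.22, adjusted p = 0.0178).

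Atp6v1h, a regulatory subunit of the pump's cytosolic part, had medians of 1750, 2424 and 1528 in Parental, Resistant and P12 samples. Its difference between Resistant and Parental cells was called with the block alone (adjusted p = 0.069, with the block 0.0409) or without line #9 (0.0181). From Resistant to P12 cells it fell by 0.70 ± 0.20 (adjusted p = 0.0458), with no overlap, and this call was lost without line #3, #4, #6, #7 or #10, with adjusted p up to 0.172. Atp6v1a, the catalytic subunit, had a higher value in the Resistant sample of 6 of 6 lines (0.61 ± 0.26, adjusted p = 0.117, with the block 0.0105, without line #3 0.0425). Mcoln1, the channel that releases calcium from the lysosome, was higher in 5 of 6 lines (0.57 ± 0.22, adjusted p = 0.0774, with the block 0.0134, without line #7 0.0446).

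**Figure D2:**
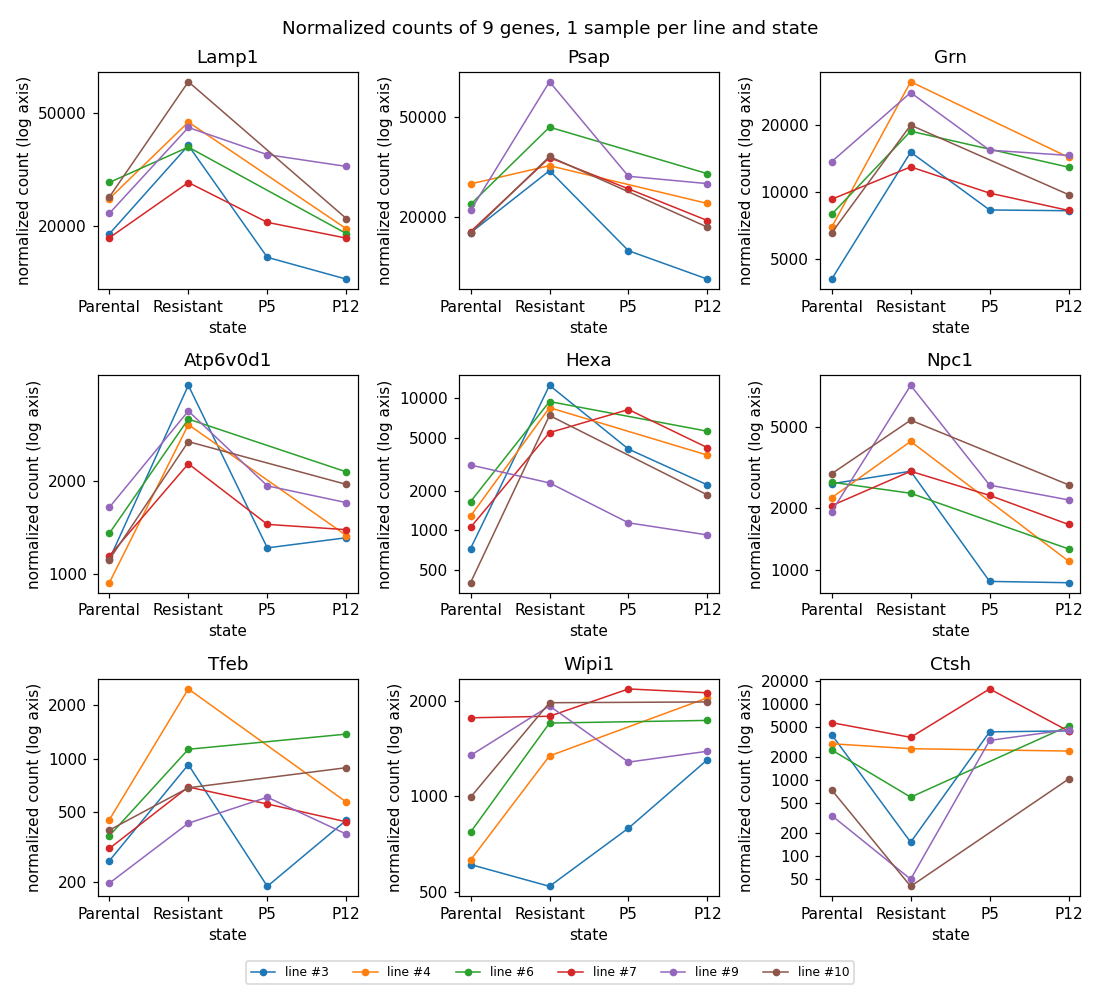
Normalized counts (log axis) of 9 members in the Parental, Resistant, P5 and P12 samples of each of the 6 cell lines, 1 point per sample and 1 colored line per cell line. Atp6v0d1 is higher in the Resistant than in the Parental sample of all 6 lines, whereas Ctsh is lower in all 6.

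Of the 3 transcription factors, Tfeb alone was called. Tfeb (chr17:47737030-47792419) ran from 198 through 339 to 452 normalized counts in Parental samples and from 432 through 809 to 2481 in Resistant samples, and only the Resistant sample of line #9 lay within the Parental range. It rose by 1.49 ± 0.40 (adjusted p = 0.0174) in 6 of 6 lines, and the call was lost without line #3 or line #4, with adjusted p up to 0.055. P12 samples ran from 375 through 509 to 1378, above the Parental sample in 6 of 6 lines (0.93 ± 0.40, adjusted p = 0.274). In 2 of 6 lines, #6 and #10, the P12 value was above the Resistant one as well. Tfe3 had medians of 1536, 1538 and 1917 in Parental, Resistant and P12 samples and no call, with differences from Parental to Resistant between -0.80 in line #9 and 1.00 in line #4. Mitf was low throughout, from 2.32 to 185 normalized counts over all samples, and was not called. Message levels say nothing of where in the cell these proteins were, which is a main point of their control.

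Of the 6 autophagy genes, 1 rose from Parental to Resistant cells, beside 7.73% of all genes. In limma 0 were called between P12 and Resistant cells, beside 3.03% of all genes that fell and 3.2% that rose. At an unadjusted p below 0.05, 1 was lower, beside 1899 of all 19300 genes. Ulk1, the kinase that starts autophagy, ran from 1496 through 1669 to 2936 in Parental and from 2515 through 3295 to 4258 in Resistant samples. It rose by 0.82 ± 0.20 (adjusted p = 0.0112) in 5 of 6 lines, not in line #7, and the call was lost without line #4 or line #10, with adjusted p up to 0.0642. At P12 its median was 1983 (-0.61 ± 0.20 from Resistant cells, adjusted p = 0.0869), and without line #7 the fall was called (0.0136). Gabarapl1, which coats the forming vesicle, had medians of 1409, 3117 and 3401 in Parental, Resistant and P12 samples. Its Resistant value was higher in 5 of 6 lines (1.13 ± 0.39, adjusted p = 0.0551, with the block 0.0316, without line #9 0.0138), and line #4 stood out with 14028. Sqstm1, the receptor that carries tagged cargo into the vesicle, had medians of 8075, 13874 and 14441 (0.52 ± 0.31 from Parental to Resistant, adjusted p = 0.283, with the block 0.028).

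Wipi1, which binds the lipid that marks the forming vesicle, had medians of 881, 1742 and 1856 in the same states. Its P12 value was above the Parental one in 6 of 6 lines (0.88 ± 0.33, adjusted p = 0.214, with the block 0.0377). Map1lc3b, the LC3 protein used to count these vesicles, and Becn1, part of the lipid kinase that starts them, did not pass the test in any comparison. From Resistant to P12 cells, the median over the 6 autophagy genes lay between -0.41 and 0.21 in the 6 lines. For the 26 lysosomal members tested, it lay between -0.87 and -0.36. Measured from Parental to P12 cells, the autophagy median was between 0.05 and 0.85, and that of the lysosomal members between -0.04 and 0.28. The difference between these groups of genes was not tested.

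In P5 cells 27 of 35 members were lower than in the Resistant sample of line #3 and 28 in that of line #9, whereas line #7 had 18 lower and 17 higher. Lamp1 held 15564, 20640 and 35642 normalized counts in lines #3, #7 and #9, each below its Resistant sample (-0.90 ± 0.27, adjusted p = 0.0983). In the same order of lines, Psap held 14746, 25942 and 29089, each below its Resistant sample (-0.82 ± 0.29, adjusted p = 0.167). Tpp1 held 3367, 5980 and 5167 (-0.65 ± 0.20, adjusted p = 0.107, with the block 0.0446). Line #3 was the lowest of the 3 lines for each of these genes. Hexa was highest in line #7, with 8243 beside 4134 in line #3 and 1143 in line #9, and in line #7 alone it stood above the Resistant sample. In the fit, which sets these 3 samples against all 6 Resistant samples, 30 of 35 members were below 0 and 5 above. The 2 counts need not match, and Sqstm1, for example, was at -0.10 in the fit although all 3 lines were higher.

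Seen line by line, the median member difference from Parental to Resistant cells was 0.46 in line #3, 0.89 in #4, 0.55 in #6, 0.46 in #7, 0.56 in #9 and 0.88 in #10. Over all tested genes the same medians lay between -0.03 and 0.02. Lines #4 and #10 thus had the highest medians, and line #10 the highest number of members above its Parental sample, 31 of 35. In line #7 the number was 22 of 35. The proteases and glycosidases were the weak groups there, with medians of -0.07 and -0.03, while its channel and pump genes had a median of 1.17. From Resistant to P12 cells the line medians were -0.52, -0.81, -0.35, -0.23, -0.50 and -0.46 in the order above. At P5, lines #3, #7 and #9 had medians of -0.49, -0.05 and -0.55 against their Resistant samples.

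Levels of cell type markers also differed between the states in some lines. In bulk RNA, fewer cells of a type and less RNA per cell cannot be told apart. Of 7 markers of duct and epithelium, 6 were tested, and Cdh1 (-7.11 ± 1.92, adjusted p = 0.0173) and Sox9 (-3.06 ± 0.62, adjusted p = 0.0029) fell from Parental to Resistant cells, with 4 falls under the block. Sox9 rose from Resistant to P12 cells (3.84 ± 0.62, adjusted p = 0.00117) and was also higher at P5 (adjusted p = 0.00534), and Cdh1 was called higher at P12 with the block (3.85 ± 1.92, adjusted p = 0.277, with the block 0.018). The summed level of these markers, most of it keratins, was 283578, 270138, 214102, 268036, 18363 and 227997 normalized counts in the Parental samples of lines #3, #4, #6, #7, #9 and #10. In the Resistant samples it was 60729, 76202, 64632, 210019, 1693 and 33833. The P12 samples held 36345, 51379, 54147, 209595, 3930 and 139212, and the P5 samples of lines #3, #7 and #9 held 24246, 238329 and 3298. In line #9 most of the P12 and P5 sums was Sox9 and not keratins, with 3440 and 2919, beside 679 in the Resistant sample.

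Of 7 fibroblast markers, 6 were tested between Resistant and Parental cells, of which limma called 0, with 1 higher at an unadjusted p below 0.05, and 2 higher with the block. Col1a1, the most abundant of them, had a median of 331 in Parental and 29184 in Resistant samples (5.19 ± 1.85, adjusted p = 0.0634, with the block 0.00363). The summed level was 92.3, 882, 445, 488, 10439 and 240 in Parental samples and 47259, 127767, 14682, 466, 503753 and 962 in Resistant samples, in the order of lines used above. P12 samples held 24337, 122931, 7463, 244, 73381 and 314, and P5 samples 31158, 372 and 75477. Lum was listed at 0 in 14 of the 21 samples and Dpt in 10.

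Macrophages and other leukocytes are rich in lysosomes, and 6 of 10 of their markers had values, with 5 tested. Cd68, itself a lysosomal protein and the most abundant of them, had medians of 164 in Parental and 257 in Resistant samples and was not called (0.61 ± 0.26, adjusted p = 0.118). Csf1r rose (2.93 ± 0.98, adjusted p = 0.0486), with 2530 in the Resistant sample of line #10 and 17.7 to 229 in those of the other lines. The leukocyte marker Ptprc was at most 20 normalized counts in every sample and Lyz2 was listed at 0 in 11 of 21. Their summed level was 148, 263, 232, 192, 285 and 213 in Parental samples and 251, 598, 361, 320, 230 and 2929 in Resistant samples. P12 samples held 234, 260, 269, 280, 242 and 219, and P5 samples 472, 363 and 251.

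Of 5 endothelial markers, 4 were tested, and Tek rose (5.90 ± 1.14, adjusted p = 0.002), while Pecam1, by its median over all 21 samples the most abundant of them, was not called in that comparison. At P12 Tek was lower than in Resistant cells (-5.84 ± 1.14, adjusted p = 0.00427) and Pecam1 higher (1.39 ± 0.33, adjusted p = 0.015), and at P5 Tek was lower (adjusted p = 0.0361, with the block 0.0629). In Resistant samples Tek had a median of 274, Kdr 98.6 and Pecam1 19.1. Their summed level was 59.4, 115, 166, 37.1, 42.5 and 51.3 in Parental samples and 215, 2018, 2753, 15.8, 94.1 and 550 in Resistant samples. P12 samples held 74.3, 233, 97.6, 124, 61.1 and 85, and P5 samples 117, 166 and 56. Cdh5 was listed at 0 in 9 of 21 samples and Emcn in 18. Osteoclast markers, 3 tested of 5, gave 0 calls in limma between Resistant and Parental cells and 0 at an unadjusted p below 0.05. Acp5, the most abundant, had medians of 288 and 88.2 in Parental and Resistant samples. Between P12 and Resistant cells limma called 0 leukocyte, 0 osteoclast and 0 fibroblast markers, with 1 of each higher and 1 leukocyte marker lower at an unadjusted p below 0.05, and 0 with the block. The part that any of these markers had in the differences of the lysosomal genes was not tested.

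Levels of different genes were compared per kilobase of exon, as the median normalized count of a state divided by that length. In Parental cells Lamp1 stood highest with 8819, followed by Psap with 7077, Ctsd with 6056, Ctsz with 3514 and Ctsb with 2750. Resistant cells began with the same 4 genes, at 15477, 12634, 8516 and 6040, and Grn came next with 5600. Hexa moved from rank 20 with 586 to rank 7 with 3997 per kilobase. Tfeb stood at 59.9 in Parental cells, below Tfe3 with 166 and above Mitf with 2.07. Differences between neighbors in this order were not tested.

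The other genes of the pathway, 135 in 7 lists, of which 133 were tested were described in the same way. From Parental to Resistant cells 37 rose and 2 fell, beside 7.73% and 7.9% of all genes tested, and 44 and 5 did so under the block, beside 12.8% and 13.2%, with a median difference of 0.44 on the log2 scale. Among 32 other hydrolases 12 rose, led by the protease Ctsf (2.85 ± 0.72, adjusted p = 0.0123). Of 18 other genes listed for the lysosomal membrane, 8 rose, led by Ostm1, partner of a chloride transporter (1.95 ± 0.31, adjusted p = 0.000455). Among 18 other pump subunits tested 5 rose, with Atp6v0b at 1.04 and Atp6v0e at 0.93, and 1 fell, Atp6v1c2 (-3.93 ± 0.93, adjusted p = 0.0079), a subunit of epithelial tissues that reached at most 12.1 normalized counts in Resistant samples. Ostm1, Atp6v0b and Atp6v0e each had all Resistant samples above all Parental samples.

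Enzyme sorting, the route that tags hydrolases with mannose 6-phosphate and delivers them, gave 3 rises in 9 genes, led by the adaptor Gga2 (1.41 ± 0.29, adjusted p = 0.00274) and Gnptab, which makes the tag (1.15 ± 0.36, adjusted p = 0.0375). In the autophagy machinery 4 of 27 other genes rose, led by Map1lc3a (1.64 ± 0.36, adjusted p = 0.00508) and Atg3, which attaches lipid to LC3 (0.94 ± 0.22, adjusted p = 0.00747). From Parental to Resistant cells 7.73% of all genes rose, and 12.8% with the block. Of 11 autophagy receptors 0 rose in limma and 1 with the block. At an unadjusted p below 0.05, 3 were higher, beside 2815 of all 19300 genes. Fundc1, a receptor on mitochondria, fell (-0.80 ± 0.24, adjusted p = 0.0315). Nutrient sensing at the lysosome gave 5 rises in 18 genes tested, led by Flcn (1.35 ± 0.19, adjusted p = 0.000198) and its partner Fnip1 (1.11 ± 0.21, adjusted p = 0.00156), which help the kinase complex mTORC1 to hold TFEB and TFE3 in the cytoplasm. Tsc2 was listed at 0 in 18 of 21 samples.

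From Resistant to P12 cells, 22 of these 133 genes fell and 1 rose, beside 3.03% and 3.2% of all genes, and the block gave 39 and 2, beside 6.6% and 6.11%. Of the other hydrolases, 5 fell, among them Manba, Man2b1 and Gm2a, and 13 with the block. The membrane list gave 6 falls, and the pump gave 4, Atp6v0b, Atp6v0c, Atp6v0e and Atp6v1e1. Enzyme sorting gave 3, Gnptab, M6pr and Gga2. The autophagy machinery gave 2, Atg4d and Gabarap, and nutrient sensing 2, Rragc and Flcn, with 4 under the block. In the receptors limma called 0 falls, and 2 with the block. At an unadjusted p below 0.05, 2 fell, beside 1899 of all 19300 genes. These genes, and with them Gm2a, the activator that hands GM2 to hexosaminidase, and the calcium-permeable channel Tpcn1, were named after their values had been seen. Gm2a fell by 2.34 on the log2 scale (SE 0.44, adjusted p = 0.00356), from a median of 3503 to 758, with no overlap between the groups. Tpcn1 rose by 2.00 ± 0.43 (adjusted p = 0.00856), from a median of 3264 to 11319, and its Parental median was 4574. P12 against Parental cells gave 0 calls among the 133 genes in limma. At an unadjusted p below 0.05, 14 were higher and 5 lower, beside 1442 and 1511 of all 19300 genes. The block gave 3 higher and 4 lower, beside 2.34% and 2.98% of all genes. In P5 against Resistant cells Tpcn1 rose and 4 genes fell, Gm2a, Atp6v0b, Gga2 and Gabarap, beside 1.18% and 0.891% of all genes, and the block gave 1 and 8, beside 1.6% and 1.18%, without Gga2 (adjusted p = 0.0365, with the block 0.0547).

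The promoters of the members were searched for CACGTG and for its longer form TCACGTGA, which contains it. Each reads the same on both strands. RefSeq windows of 300 bases (GRCm38.p6), from 250 bases before to 50 after a start site, matched 31 of 36 members by symbol. The members without a window were Ctsb, Ctsh, Npc1, Atp6v1h and Becn1. CACGTG stood in the windows of 10 of 31 members (32.3%), beside 8.09% of the 27025 genes with a window and 7.15% of all 32851 windows. TCACGTGA stood in those of 6 members (19.4%), beside 1.12% of genes and 0.974% of windows. Among the 108 other pathway genes with a window the shares were 24.1% and 6.48%. Both motifs were found in all 3 channel and pump genes with a window. CACGTG was found in 3 of 6 glycosidases and 3 of 7 proteases, and in 0 of 4 genes of lipid handling, 0 of 3 transcription factors and 0 of 5 autophagy genes. Of the 11 members that rose in Resistant cells 4 had it (36.4%), and of the other members with a window 6 of 20 (30%). A match is a description of these letters and shows no binding.

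**Figure D3:**
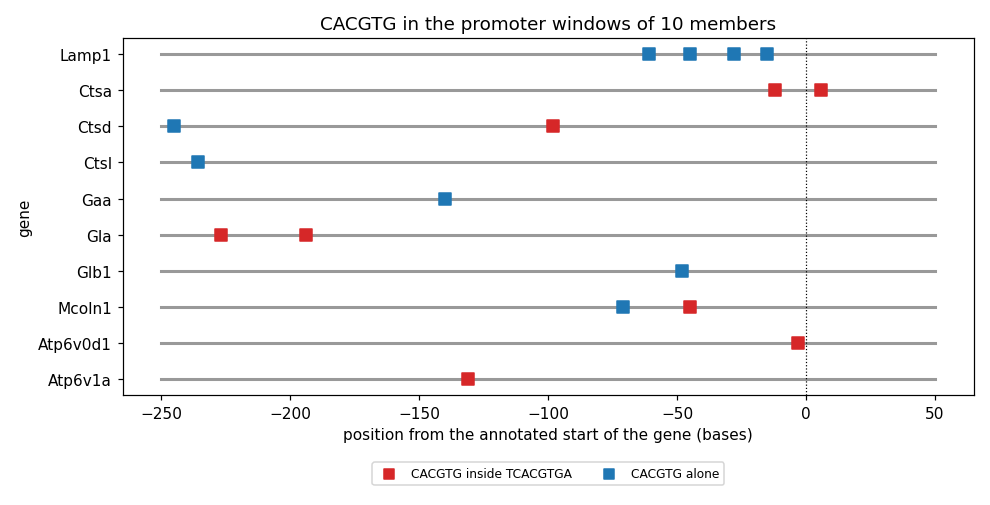
Positions of CACGTG in the promoter windows of the 10 members that have it, in bases from the annotated start site, 250 bases before to 50 after, with the longer TCACGTGA drawn apart. Lamp1 has 4 matches, at positions -61, -45, -28 and -15.

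The stretches around these matches are printed to show the letters found, for 4 members that rose in Resistant cells (Lamp1, Ctsa, Gaa and Atp6v0d1) and for the other channel and pump genes with a match. Of these last, Mcoln1 (adjusted p = 0.0774) and Atp6v1a (0.117) were not called between Resistant and Parental cells. They were called with the block over all states, though not with the block in a fit of these 2 states, and without it when line #7 (Mcoln1, 0.0446) or line #3 (Atp6v1a, 0.0425) was left out. Capitals mark TCACGTGA where the longer form is present and CACGTG otherwise, and each stretch reads 5′ to 3′ on the strand of its gene. The stretch of Lamp1 is chr8:13159075-13159176 on the plus strand, with CACGTG at positions -61, -45, -28 and -15 from the start. That of Ctsa is chr2:164833736-164833797 (plus), that of Gaa chr11:119267798-119267853 (plus), that of Atp6v0d1 chr8:105566040-105566092 (minus), that of Mcoln1 chr8:3500423-3500504 (plus) and that of Atp6v1a chr16:44139360-44139415 (minus).
Lamp1: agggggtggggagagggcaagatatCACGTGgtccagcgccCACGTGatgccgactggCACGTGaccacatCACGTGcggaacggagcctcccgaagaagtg
Ctsa: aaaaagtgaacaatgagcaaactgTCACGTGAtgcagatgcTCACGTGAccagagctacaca
Gaa: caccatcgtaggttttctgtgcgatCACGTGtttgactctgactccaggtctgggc
Atp6v0d1: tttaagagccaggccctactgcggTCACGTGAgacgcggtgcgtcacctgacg
Mcoln1: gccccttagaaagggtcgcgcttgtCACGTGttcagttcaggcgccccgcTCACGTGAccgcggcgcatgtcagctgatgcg
Atp6v1a: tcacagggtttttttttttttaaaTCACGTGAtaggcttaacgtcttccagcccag
Ctsa has 2 windows, of which the one at the first base of the gene has 0 matches. In the other, whose start site lies inside the gene, the longer form stands on either side of that site, and in Atp6v0d1 it spans the start. Ctsd, Ctsl, Gla and Glb1 have CACGTG as well, with the longer form in Ctsd and Gla, and these 4 were not called between Resistant and Parental cells either, with or without the block, except for Ctsd without line #3.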

How the data were processed

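The values are a signal that the authors deposited: gene counts from Salmon 0.12, normalized between samples with DESeq2 1.18 and not per gene length. They were analysed as log2 of the value plus 1 in R 4.3.3 with limma 3.58.1 (empirical Bayes with a trend), in 1 fit of all 21 samples. Genes entered that reached 10 or more in 3 or more samples, 19300 of 34478. P-values were adjusted after Benjamini-Hochberg over all of them, and a gene was called at an adjusted p below 0.05. Tables and motif searches used Python 3.11.15, and exon lengths and coordinates GENCODE M21. Samples of the same cell line were paired by label, and the correlation of their deviations from the state means was 0.159 to 0.352 for Resistant and Parental samples, 0.337 to 0.52 for P12 and Resistant, 0.008 to 0.51 for P12 and Parental and 0.495 to 0.537 for P5 and Resistant samples. The cell line as a block was an alternative, beside other pseudocounts, filters, scaling, thresholds, fits of the compared states and leaving out each line. Depth was estimated from the step between low values, on which 46.6% to 71% of them fell within 0.02 steps. All 36 members were named, and of each other list up to 2 largest rises and falls called between Resistant and Parental cells, except for some that are not reported here. Members and lists were chosen with earlier results of these data known.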

Additional observations from a re-analysis of the deposited data

Results flagged for a closer look

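Of the 105 groups of 6 samples given by the 35 tested members in the Parental, Resistant and P12 states, 6 held a sample whose gap to its nearest neighbor on the log2 scale was a large share of the whole range (above 0.625). Chance gives this in about 5% of groups. In P12 cells of line #3, Tpp1 had 3469 normalized counts against 4712 to 5343 in the other lines, a share of 0.709. Neu1 in Parental cells of line #9 had 1318 against 5231 to 6270, a share of 0.884. Resistant cells of line #4 had Tfe3 at 2632 against 1281 to 1556 (0.731) and Gabarapl1 at 14028 against 1780 to 3528 (0.669). Mitf in P12 cells of line #6 had 2.47 against 43.1 to 117, a share of 0.72. Wipi1 in Resistant cells of line #3 had 520 against 1339 to 1969, a share of 0.71.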

How the results depend on the processing

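The counts of members called moved with the block, the threshold and the lines included, and in every alternative run no member's difference changed sign while called. For Resistant against Parental cells the 11 calls became 19 with the block and 4 at an adjusted p below 0.01 with a log2 difference beyond 1 (Ctsa, Hexa, Grn and Atp6v0d1), and leaving out 1 line gave 6 to 14. With the compared states alone and the block it was 11, with Ctsh and without Ulk1. For P12 against Resistant cells the 6 calls became 11 with the block, 11 with the block and the compared states alone (with Hexa, without Ctsh), and 1 (Lamp1) at the stricter threshold, and leaving out 1 line gave 3 to 7. P12 against Parental cells had 0 calls, 2 with the block, 0 with the block and the compared states alone, and 0 to 1 without 1 line. P5 against Resistant cells had 1 call, 3 with the block, 0 with the compared states alone, with or without the block, 0 at the stricter threshold, 0 without the P5 samples of lines #7 and #9 (1 sample left, assumed to vary like the other groups), and 0 to 2 without 1 line. The stricter threshold lowers the counts by construction. With it, 496 of all 19300 genes rose from Parental to Resistant cells and 164 fell from Resistant to P12 cells. Leaving out a line lowered some counts and raised others, as without line #9, and for this and the other settings the cause was not tested. The block changed no other call of a member than those named with the results. The other settings kept each count within 1.5 times. Among these, no filter lost Lamp2 and a mean of at least 100 gained Gabarapl1 from Parental to Resistant cells, and Atp6v1h lost its fall without a filter, without the trend, with scaling to the upper quartile and with the compared states alone, which also lost Psap. The median over lines of the median member difference kept its direction: 0.53 to 0.56 for Resistant against Parental, -0.50 to -0.41 for P12 against Resistant, 0.15 to 0.25 for P12 against Parental and -0.55 to -0.27 for P5 against Resistant cells. Within single lines, the highest P5 value went from -0.05 to 0.01 with scaling to the upper quartile. Scaling to the upper quartile moved the median of all genes by at most 0.10 (log2), for P5 against Resistant cells. Each state has 1 sample per line, P5 has 3, and genes near the value of 3 reads, such as Ctss, allow no statement at this depth.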
